A study of Drosophila melanogaster with 51 samples.

Results

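The centromere-proximal sequence of chromosome arm 3R was examined for peaks of H3K9me3, the histone mark of constitutive heterochromatin, and of HP1, the protein that reads it. Members were taken by position alone, as the peaks on 3R whose middle base lies below 4600000 in dm6. In dm6 the coordinates of 3R begin in the pericentric heterochromatin and rise toward the arm, so distance from the arm is counted downward from 4600000. The rule gave 190 of the 2245 H3K9me3 peaks and 51 of the 1435 HP1 peaks of the whole lists. The first listed H3K9me3 peak beyond this limit lay 212 kb farther out (3.73-fold enrichment), and the last within it lay 425 kb before it (9.49-fold). For HP1 these distances were 106 kb (3.79-fold) and 120 kb (7.30-fold).

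The lists come from CUT&RUN, in which an antibody tethers a nuclease to chromatin and the released DNA is sequenced, on wing imaginal discs, the larval precursors of the adult wing. The discs, at least 20 per library, were dissected from female wandering third-instar larvae raised at 25 °C. The series holds 51 libraries in 18 groups. Their titles name yw, HWT, K9R, HP1a-control, HP1a-chromo, GFP-HP1a/GFP-HP1a, GFP-HP1a/+, CrGFP-HP1a and CrGFP-HP1chromo discs. The lists, however, carry no values of single libraries. Spread between replicates and depth are therefore unknown, no genotypes were compared, and all counts below describe the lists without a test.

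Peak names trace 162 of the 190 H3K9me3 peaks to an HWT replicate labelled pel and 28 to a ywdf replicate labelled pel. All 51 HP1 peaks trace to merged ywdf data labelled sup. HWT larvae lack the native histone gene cluster (∆HisC) and carry the wild-type histone transgene H3.2HWT, together with twi-Gal4 and UAS-2xEYFP, which mark the selected larvae. What ywdf, sup and pel stand for is not given in the sources used here. The library titles carry sup or pel only for anti-GFP libraries, and ywdf not at all. All H3K9me3 peaks thus differ from the HP1 peaks in the label pel or sup as well as in antibody, and the 162 HWT peaks also in genotype name. The part these play in the differences below cannot be told apart from the antibody. The lists also differ in threshold, with a smallest −log10 q-value of 1.42 among the H3K9me3 members and 5.02 among the HP1 members.

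As background, HP1a binds methylated H3K9 through its chromodomain and, through a separate domain, binds itself and partner proteins that include an H3K9 methyltransferase. Pericentric heterochromatin is rich in repeats and poor in genes, yet the genes that reside there are expressed, many of them from very long transcription units swollen by repeat-filled introns. In flies such genes can lose expression when moved away from heterochromatin, and euchromatic genes brought next to it are often silenced.

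The gene landscape of this stretch is uneven. The annotation lists 93 genes, 68 of them protein-coding. Of these, 73 genes have their lower-numbered end at or above that of CG12581, at 4174632, so that most genes lie in the last part before the arm. The remainder is mostly of 2 kinds, the bodies of the giant genes Myo81F, an unconventional myosin gene of 1966 kb, and Pzl, a Piezo-like channel gene of 709 kb, which together make up 58.2% of the sequence, and 6 gene deserts. A desert is here a stretch of at least 50 kb without any annotated gene. The deserts add up to 1107 kb, or 24.1% of the sequence, gene bodies to 70.3% and the shorter intergenic stretches to 5.66%. Assembly gaps were not used here and count as sequence without peaks.

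H3K9me3 peaks covered 103 kb, 2.24% of the sequence, and HP1 peaks 52.1 kb, 1.13%. The median H3K9me3 peak was 349 bp wide, and the median of the authors' fold enrichment was 5.01, against 372 bp and 5.70 over the whole list. For HP1 the medians were 516 bp and 7.03-fold, against 437.5 bp and 6.03-fold over the whole list on named chromosomes. With a −log10 q-value of at least 10 required, H3K9me3 coverage fell to 1.12%. At either threshold most of the sequence lay under no listed peak of either target.

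Neither target was spread evenly with distance from the arm. In the first 0.5 Mb from the border H3K9me3 covered 0.313% of the bases in 3 peaks. From 0.5 to 1 Mb it covered 11.6% in 83 peaks, and from 1 to 1.5 Mb 5.26% in 55 peaks. Over the next 3 Mb, in bins of 0.5 Mb, coverage ran from 0.223% to 0.992%, with 4 to 13 peaks a bin. The last 0.1 Mb, at the start of the chromosome sequence, held 1 peak of 2194 bp. Coverage by listed H3K9me3 peaks was therefore highest in a belt set back from the arm and did not rise steadily toward the centromere. This is a profile of listed peaks and not of the mark itself. How well reads could be placed in the repeats was not tested.

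HP1 was more restricted in position. From the arm inward it covered 1.70% of the first 0.5 Mb (16 peaks), 7.72% of the next (31 peaks) and 0.892% of the third (3 peaks). A single HP1 peak lay farther in, at 3R 566508 to 567050, with 6.12-fold enrichment. It ended 26 bp below the lower annotated end of Myo81F. Between it and the next HP1 peak, at 3584743, lay 3018 kb without a listed HP1 peak and with 94 H3K9me3 peaks.

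**Figure D1:**
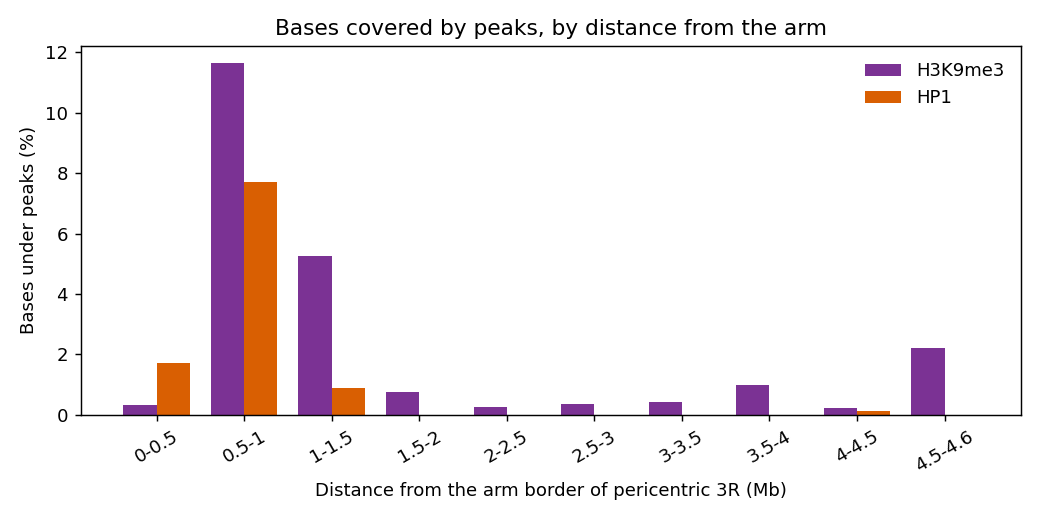
Percentage of bases under H3K9me3 (purple) and HP1 (orange) peaks in bins of 0.5 Mb by distance from the arm border, the last bin being 0.1 Mb long. Both targets peak from 0.5 to 1 Mb, at 11.6% and 7.72%, and HP1 is listed in 4 of the 10 bins.

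The absence of listed peaks is not an absence of calls. Call numbers in the peak names rise with position along 3R in each source. Across the HP1 gap of 3018 kb they jump from 5272 to 5355, so 82 HP1 calls were numbered there and are not listed. From the first to the last member, 56.8% of the 243 HWT H3K9me3 call numbers were listed, 15.3% of the 235 HP1 numbers and 3.61% of the 664 ywdf H3K9me3 numbers. Which filter removed the others is not given in the sources used here, and its part in the differences between the targets was not tested.

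With HWT and ywdf peaks together, the median H3K9me3 fold enrichment was not highest where coverage was. From 0 to 0.5 Mb it was 5.78, and from 0.5 to 1 Mb 5.01. It was 5.37 in each bin from 1 to 2 Mb, and between 3.72 and 11.9 in the 0.5 Mb bins beyond, which hold 4 to 13 peaks each. The 11.9 came from 4 peaks, 3 of them ywdf. For HWT peaks alone the medians were 5.78 (3 peaks), 5.01 and 5.16 in the bins out to 1.5 Mb. In the 0.5 Mb bins farther in they were lower, from 3.72 to 4.75, with 1 to 10 HWT peaks each. This difference was not tested. The most enriched H3K9me3 peak of the stretch, at 38.8-fold, was 511 bp wide and lay deep within Myo81F at 3R 1943671 to 1944181. Next came a ywdf peak at 3389459 to 3389834, in the desert between spok and Parp1, at 20.3-fold. Peaks at 1017834 to 1018357 (20.2-fold), 1324552 to 1324810 (17.7-fold) and 2525390 to 2525768 (15.9-fold) followed, all within Myo81F. The last of these is 1 of 2 listed parts of a call, which carry the same fold. None of these 5 peaks touched HP1, and the 4 within Myo81F lay in bins where H3K9me3 covered 0.264% to 0.992% of the bases.

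**Figure D2:**
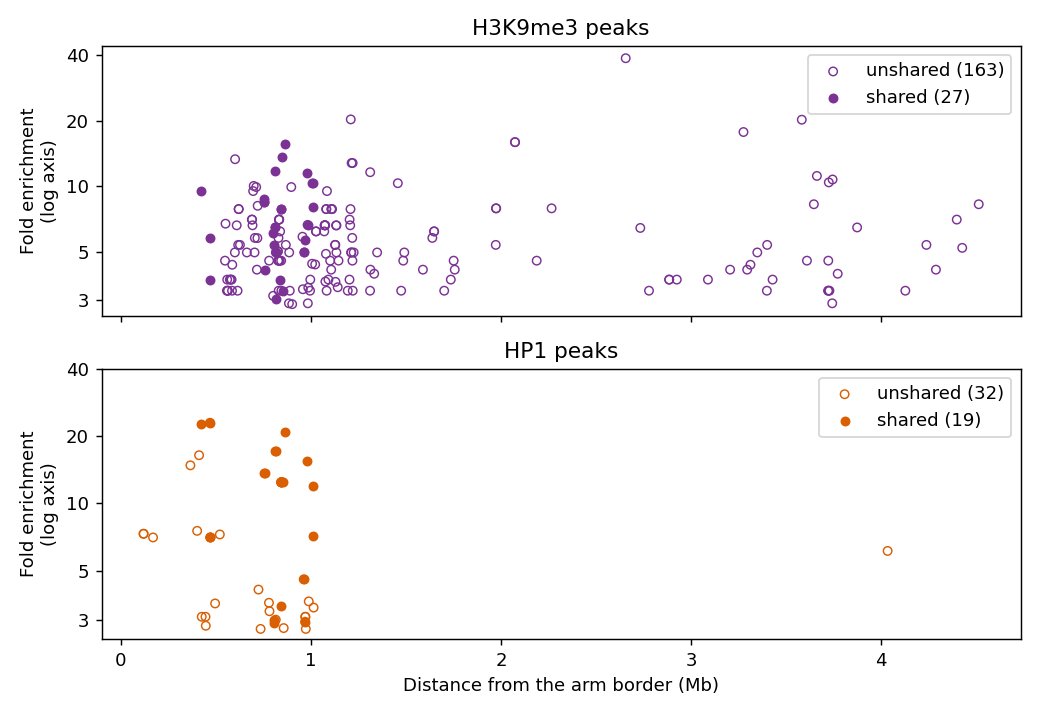
Fold enrichment of each peak (log axis) against distance from the arm border in Mb, H3K9me3 above and HP1 below, filled circles for peaks that touch the other list. The shared peaks lie between 0.43 and 1.01 Mb, while H3K9me3 peaks reach 4.51 Mb.

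By count of listed peaks, deserts held the most of both targets, and by base the short intergenic stretches were the most covered. Of the 190 H3K9me3 peaks, 93 (48.9%) had their middle base in a desert, against 37.0% of the whole H3K9me3 list, and 78 (41.1%) in a gene body, against 39.2%. Of the 51 HP1 peaks, 24 (47.1%) lay in deserts, against 11.9% of the whole HP1 list, and 17 (33.3%) in gene bodies, against 58.2%. The HP1 order depended on counting parts of a call. With the parts of each call joined into 1 span, 15 of 36 HP1 spans (41.7%) lay in gene bodies and 13 (36.1%) in deserts. For H3K9me3 the joined shares were 40.7% and 48.8%. The whole lists include the gene-dense arms and chromosome 4, so the shares of the whole lists come from another landscape. Per base, H3K9me3 covered 4.64% of the deserts, 7.53% of the other intergenic sequence and 0.997% of the gene bodies. HP1 covered 1.80%, 7.95% and 0.357% of the same sequence. With the border at 4.1 Mb, 17.1% of HP1 peaks lay in gene bodies.

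Gene bodies were not alike. In Myo81F and Pzl H3K9me3 covered 0.587% of the bases and HP1 none, whereas in all other gene bodies, 558 kb in all, H3K9me3 covered 2.96% and HP1 2.07%. The H3K9me3 value was mostly that of Parp1. With Parp1 set aside as well, a choice made after seeing the values, H3K9me3 covered 0.417% of the remaining 432 kb of gene bodies in 4 peaks, and HP1 2.37% in 15 peaks. Without Myo81F and Pzl in the table, 30 H3K9me3 peaks (15.8%) and the same 17 HP1 peaks lay in a gene body. The desert shares in turn depend on the minimum length. With at least 100 kb required, 27.9% of H3K9me3 and 3.92% of HP1 peaks lay in deserts, since the deserts of 59.2, 69.5 and 94.4 kb no longer counted.

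**Figure D3:**
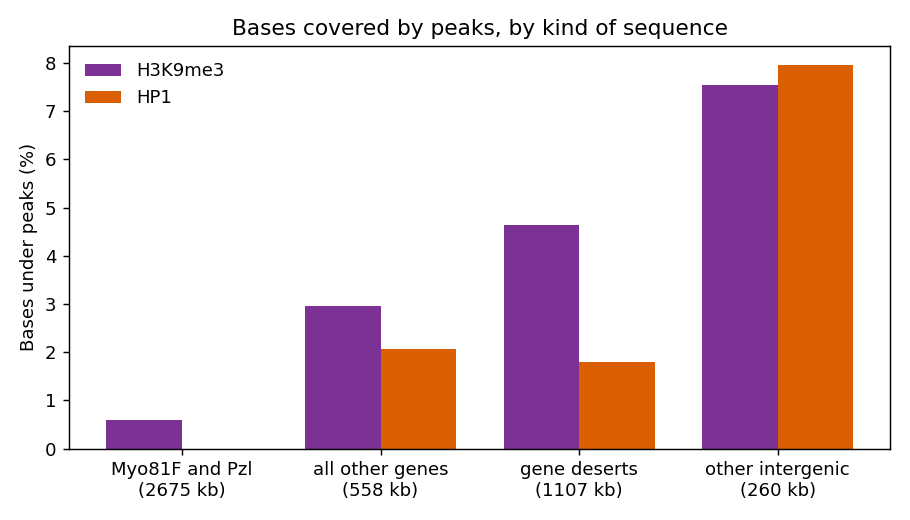
Percentage of bases under H3K9me3 (purple) and HP1 (orange) peaks in the bodies of Myo81F and Pzl, in all other gene bodies, in gene deserts and in other intergenic sequence, with the length of each class. Coverage is lowest in the giant genes (0.587% and none), H3K9me3 in the other genes lies mostly in Parp1, and coverage is highest in the short intergenic stretches (7.53% and 7.95%).

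The 6 deserts differed widely from each other. The innermost, 567 kb from the start of the sequence to Myo81F, held 6 H3K9me3 peaks over 0.584% of its bases and the isolated HP1 peak. It also held 51 of the 70 anti-GFP background regions listed for pericentric 3R. The libraries behind them are titled yw, while their genotype label reads GFP-HP1a/+, and which of the names holds is not given in the sources used here. Of all members, 2 H3K9me3 peaks and no HP1 peak touched a background region. The first, at 174364 to 174746, lay in the innermost desert, and the other in the desert from CG41099 to CG42402.

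Nearer the arm, the deserts from Pzl to spok (59.2 kb) and from spok to Parp1 (107 kb) held 4 and 16 H3K9me3 peaks, over 1.81% and 5.06% of their bases, and no HP1 peak. The desert of 69.5 kb beyond Alg-2 held 5 H3K9me3 peaks (5.40% covered) and 6 HP1 peaks (3.73%). Most heavily covered was the desert of 94.4 kb from CG41128 to CG41099, with 31 H3K9me3 peaks over 15.1% and 16 HP1 peaks over 17.6% of its bases. Of these, 14 H3K9me3 and 9 HP1 peaks touched the other list. Among the latter was an HP1 peak of 5869 bp at 3784649 to 3790517, with 17.1-fold enrichment. It touched 4 H3K9me3 peaks, and its middle base lay 35230 bp from the nearest gene end.

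The last and second-longest desert, 210 kb from CG41099 to CG42402, paired high H3K9me3 with almost no listed HP1. It held 31 H3K9me3 peaks, over 11.2% of its bases and with 3.30- to 13.3-fold enrichment, and 1 HP1 peak of 69 bp with 4.11-fold enrichment. No peak of either list touched the other there. The widest H3K9me3 peak of the whole stretch, 5492 bp at 3R 3884167 to 3889658 with 9.91-fold enrichment, lay in this desert, as did a peak of 3591 bp at 3898110 to 3901700. Another H3K9me3 peak there, 2267 bp at 3905061 to 3907327, touched an anti-GFP background region. HP1 call numbers skip 20 across the 203 kb from 3874881 to 4077863, so HP1 calls were made in this desert as well and are not listed.

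Shared peaks were confined to a narrow window. At 1 bp or more, 27 H3K9me3 peaks (14.2%) touched HP1, against 22.3% of the whole H3K9me3 list, and 19 HP1 peaks (37.3%) touched H3K9me3, against 32.1% of the whole HP1 list. All of them lay between 3586035 and 4175360, from the upper end of Parp1 to the lower end of CG12581. Outside this window the lists could hardly meet. Below it lay only the HP1 peaks that start at 566508 and 3584743, and above it no H3K9me3 peak was listed. With at least 50% of both peaks in common, 5.26% of H3K9me3 and 19.6% of HP1 peaks were shared, and with a −log10 q-value of at least 10 in both lists 23.6% of H3K9me3 peaks. At 1 bp the lists had 23012 bases in common, which was 22.3% of the bases under H3K9me3 and 44.1% of those under HP1. H3K9me3 peaks without HP1 ranged from 86600 to 4050895, and HP1 peaks without H3K9me3 from 566508 to 4479962.

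Where HP1 was shared, its peaks were 1082 bp wide and 12.4-fold enriched at the median, compared with 331 bp and 4.34 for the 32 unshared ones. The ranges of fold enrichment overlapped, from 2.92 to 22.9 in shared and from 2.74 to 22.9 in unshared HP1 peaks. For H3K9me3 the medians were 447 bp and 6.63-fold in shared and 343 bp and 4.95-fold in unshared peaks. The highest H3K9me3 fold enrichment was found among the unshared peaks, 38.8 against 15.7. Parts of 1 call carry the same fold enrichment, and these differences were not tested. All 6 HP1 peaks wider than 2 kb were shared, against 3 of the 7 such H3K9me3 peaks. A wider peak meets the other list at 1 bp more readily, so width and sharing are linked by the definition used. The widths are also those of listed parts where a call was split.

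Between the upper end of Parp1 and the lower end of CG41099, 260 kb with 4 annotated genes, 24 of the 27 shared H3K9me3 and 15 of the 19 shared HP1 peaks were found. H3K9me3 covered 14.6% of this stretch in 56 peaks and HP1 15.6% in 29 peaks. From the chromosome start to the upper end of Parp1, by contrast, there were 100 H3K9me3 peaks, none of them shared, and 3 HP1 peaks over 0.052% of the bases. Most of the overlap of the targets in pericentric 3R thus lay within this interval.

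**Figure D4:**
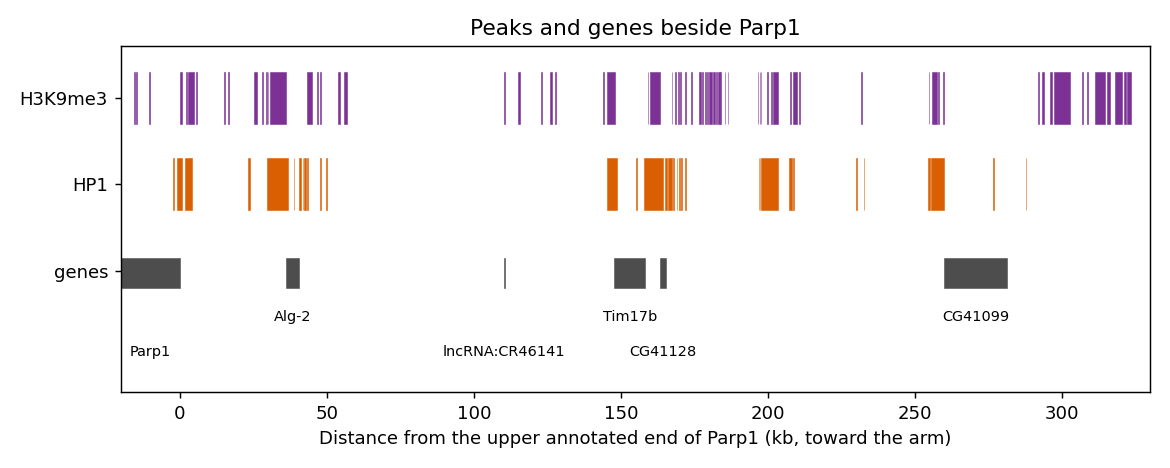
H3K9me3 peaks (purple), HP1 peaks (orange) and annotated gene bodies (grey) by distance in kb from the upper end of Parp1, with the arm to the right. Wide peaks of both targets stand together beside Alg-2, Tim17b, CG41128 and CG41099. A further wide HP1 peak, of 5869 bp, lies with H3K9me3 peaks inside the desert between CG41128 and CG41099. Past CG41099 H3K9me3 peaks continue with a single HP1 peak of 69 bp.

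The genes are described from the inside outward, with "lower" and "upper" for their ends by coordinate, since strand was not used here. Among the 68 protein-coding genes, H3K9me3 peaks touched 8 (11.8%) and HP1 peaks 12 (17.6%), against 1.26% and 3.71% of all protein-coding genes on the named chromosomes. Peaks of both lists touched 6 of them, Parp1, Alg-2, Tim17b, CG41128, Gfat1 and CG12581. The genes were chosen by their place in heterochromatin, so no test was made of this contrast.

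Myo81F, at 3R 567076 to 2532932, held 32 H3K9me3 peaks in its body, with fold enrichment from 2.89 to 38.8 and a median of 4.54. They covered 0.512% of the gene, a density of 1.63 peaks per 100 kb. Pzl, at 2554162 to 3263582, held 16, with 3.30- to 10.3-fold enrichment, over 0.795% of the gene. None of these 48 peaks touched HP1, and no HP1 peak lay in either gene. In the neighbouring gene spok, which encodes a cytochrome P450 of ecdysone synthesis and spans 31.7 kb, there was no peak of either list.

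Parp1 encodes poly(ADP-ribose) polymerase, an enzyme that modifies chromatin proteins with ADP-ribose chains and acts in DNA repair and transcription. Its 126 kb body, at 3461351 to 3587054, held 26 H3K9me3 peaks, 20.7 per 100 kb, which covered 11.7% of it with 3.30- to 9.49-fold enrichment. Its 2 HP1 peaks, 303 bp at 3584743 to 3585045 (3.41-fold) and 1866 bp at 3586035 to 3587900 (11.9-fold), lay at the upper end and covered 1.05%. The wider of them spanned the annotated end. No base inside Parp1 was common to both lists, since the body peaks of H3K9me3 stopped at 3576915 and the H3K9me3 peak that this HP1 peak touched began at 3587131, beyond the gene.

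Next came the widest HP1 peak of the stretch, 7030 bp at 3616899 to 3623928 with 15.4-fold enrichment. It covered the lower end of Alg-2, a gene for a calcium-binding protein, at 3623143. An H3K9me3 peak of 5457 bp at 3617738 to 3623194 with 11.6-fold enrichment lay within it and reached 52 bp into the gene. HP1 covered 18.3% of Alg-2 and H3K9me3 1.14%. Most of the bases of both peaks lay outside the gene, on the intergenic side toward Parp1. Beyond the next desert, the short gene lncRNA:CR46141 had its upper end under an H3K9me3 peak at 3697487 to 3697702, which at 2.86-fold was the least enriched of the H3K9me3 members, and held no HP1 peak.

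The same arrangement was found at Tim17b, which encodes a subunit of the mitochondrial inner membrane translocase. At its lower end, 3734855, an HP1 peak of 3492 bp (20.9-fold) and an H3K9me3 peak of 2932 bp (15.7-fold) began at 3732197 and 3732180. At its upper end an HP1 peak of 6415 bp with 12.4-fold enrichment, from 3744871 to 3751285, bridged the gap to CG41128 and covered the lower end of that gene. An H3K9me3 peak of 3387 bp (13.6-fold), at 3747102 to 3750488, lay under it. HP1 covered 57.2% of CG41128, the largest share of any gene here, and 14.1% of Tim17b, and H3K9me3 6.33% and 2.46%. Wide peaks of both targets therefore lay in the intergenic sequence beside these genes, and inside the genes HP1 covered more than H3K9me3.

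CG41099, at 3846729 to 3868401, was approached in the same way from the inside. HP1 covered its lower end with a peak of 4447 bp, 3842540 to 3846986, at 13.7-fold. The nearest H3K9me3 peak, 340 bp at 8.69-fold, ended at 3846728, the base before the gene. Inside the gene there was no H3K9me3 peak and a second HP1 peak of 455 bp (2.74-fold), for 3.29% under HP1. Across the next desert, HP1 covered the lower end of CG42402 with a peak of 571 bp (7.25-fold), and no H3K9me3 peak touched the gene.

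Gfat1 encodes the first and rate-limiting enzyme of the hexosamine pathway, which supplies sugars for glycosylation. In its 11.4 kb body, at 4126442 to 4137882, 5 HP1 peaks covered 21.3%, the largest number of bases under HP1 in any gene here, 2437. They carry the names of 2 calls, of 7.03- and 22.9-fold enrichment, the latter the highest of the HP1 members. The 2 H3K9me3 peaks there, of 10 bp and 696 bp with 3.72- and 5.78-fold enrichment, covered 6.17%. All their 706 bases lay under HP1, and Gfat1 differed from the preceding genes in that the shared peaks lay inside the gene and not at its ends. The small gene CG40198 beyond it held no peak.

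The last H3K9me3 peak was at CG12581, whose lower end was covered by 860 bp of H3K9me3 (9.49-fold) and 1082 bp of HP1 (22.7-fold). From there to the border, H3K9me3 peaks touched none of the remaining protein-coding genes, and the next H3K9me3 peak on 3R lay 637 kb away. HP1 continued for 6 more peaks without H3K9me3. They lay over the upper end of CG12581 and the lower end of the pseudogene CR33294 (16.4-fold), the lower end of the beta-mannosidase gene beta-Man (7.53-fold), the lower end of the DEAD-box helicase gene abs (14.8-fold), the upper end of srl, the fly homologue of the PGC-1 coactivator (7.03-fold), and, as 2 parts of 1 call, on either side of the upper end of CG31523 (7.30-fold). Of the 57 protein-coding genes from CG12581 on, HP1 touched 5 and H3K9me3 1, compared with 7 and 7 of the 11 genes farther in. The longest protein-coding genes under neither target were CG34357, spok, the complexin gene cpx, CG31522 and the auxilin gene aux, all but spok from this outer part.

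**Figure D5:**
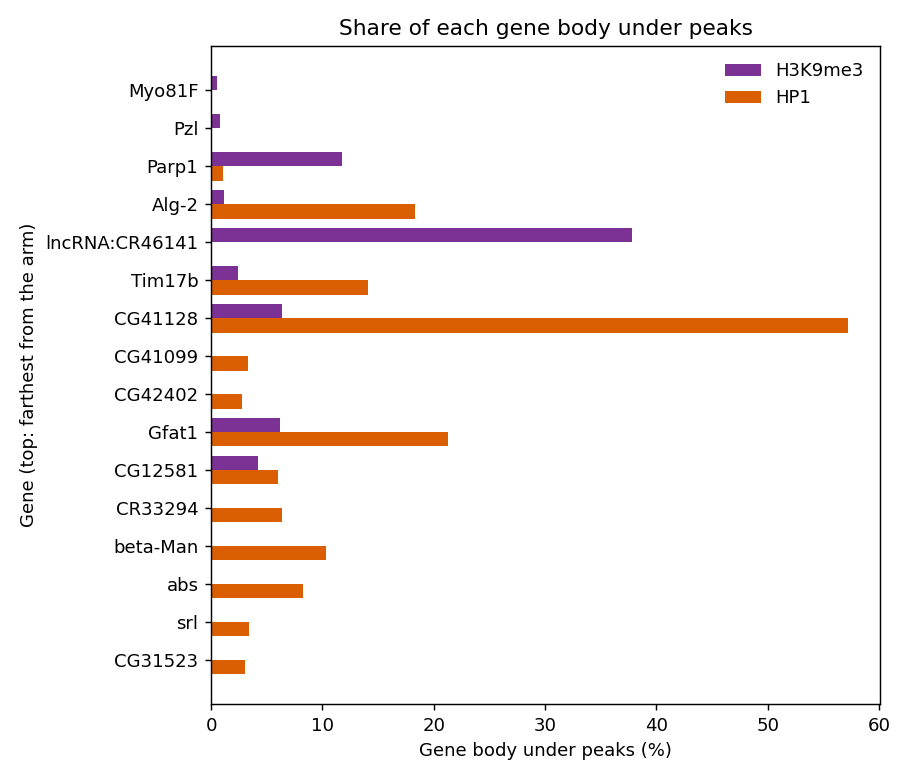
Percentage of each gene body under H3K9me3 (purple) and HP1 (orange) peaks for the 16 annotated genes touched by a peak, ordered from the chromosome start to the arm. H3K9me3 exceeds HP1 in Myo81F, Pzl, Parp1 and lncRNA:CR46141, and HP1 exceeds H3K9me3 in the other 12.

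With any base of the peak counted, 15 of 51 HP1 peaks (29.4%) came within 200 bp of an annotated end, close to the 28.0% of the whole HP1 list. For H3K9me3 it was 7 of 190 (3.68%), against 9.04% of its whole list. By the middle base the counts were 6 HP1 peaks (11.8%, against 12.0%) and 3 H3K9me3 peaks (1.58%, against 3.21%). Sequence within 200 bp of a gene end makes up 1.44% of the stretch. The HP1 shares were thus near those of the whole list.

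Counted by gene, 10 of the 68 protein-coding genes had an end under an HP1 peak, against 1.71% of all protein-coding genes, and 4 under an H3K9me3 peak, against 0.789%. The 10 are Parp1, Alg-2, Tim17b, CG41128, CG41099, CG42402, CG12581, beta-Man, abs and srl, and the 4, Alg-2, Tim17b, CG41128 and CG12581, are among them. The middle base of an HP1 peak lay at a median of 2587 bp from the nearest gene end, with 8 of 51 farther than 10 kb. For H3K9me3 the median was 32824 bp, with 148 of 190 farther than 10 kb. The distances for H3K9me3 include those inside the giant genes.

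Compared with the pericentric parts of 3L (5.1 Mb) and 2R (5.4 Mb), 3R was the least covered. H3K9me3 covered 8.16% of 3L and 8.22% of 2R, and HP1 3.52% and 4.43%, with 140 and 141 H3K9me3 peaks per Mb against 41.3 on 3R. Gene bodies make up 36.4% and 39.0% of these parts, so the landscape also differs. Of the H3K9me3 peaks 13.2% and 20.3% touched HP1, and of the HP1 peaks 46.8% and 54.5% touched H3K9me3. The share of HP1 peaks in deserts was 21.4% and 31.9%. Without values of single libraries none of these differences between chromosomes could be tested.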

How the data were processed

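Deposited lists of H3K9me3 peaks, HP1 peaks and anti-GFP background regions, given for the series and not for single libraries, were used. Which libraries entered the peak lists is known here only from the peak names. Bowtie2 2.3.4.1, SAMtools 1.10, bedtools 2.26, MACS2 2.1.2 and the build dm6 are named in the submitters' processing notes. Each deposited row carries the authors' fold enrichment, a ratio, a −log10 q-value and a score that equals 10 times the −log10 q-value rounded down. These are values of the call, used only within a list, and 69 of 162 HWT and 26 of 28 ywdf H3K9me3 rows and 33 of 51 HP1 rows are narrower than the offset recorded for their summit. Each row is called a peak.

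Members were selected, overlapped at 1 bp and placed against 17807 RefSeq genes (Release 6 plus ISO1 MT) with Python 3.11.15 and pandas 2.3.3. The interval functions were tested on simulated data against base-by-base counts. Named genes are those with the most bases or the largest share covered, with a peak at an end, or long and without peaks, and CG40198 and the remaining genes under a peak were added after their values were seen. The members and lists were chosen with earlier results of these data known. Alternatives changed the overlap, q-value, border, desert length, reach, gene types, background regions and joining of calls. No sequence is printed, since no genome was used here.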

Additional observations from a re-analysis of the deposited data

How the results depend on the processing

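No paired analysis was possible because only peaks, and no single libraries, are listed. Leaving out a replicate was therefore not run, and the depth behind each peak is unknown. Of 76 alternative values, 58 stayed within the exact binomial (Clopper-Pearson) 95% interval of the value reported, which covers counting error only and treats neighbouring peaks, or for coverage single bases, as independent. For coverage the interval is therefore far too narrow, and nearly any alternative falls outside it. The cause of the other 18 was not tested beyond what each choice itself changes. With at least 50% of both peaks in common, 19.6% of HP1 and 5.26% of H3K9me3 peaks were shared. With a −log10 q-value of at least 10 in both lists, 23.6% of H3K9me3 peaks were shared and 40% lay in deserts, and coverage was 1.12% for H3K9me3 and 1.01% for HP1. With the border at 4.1 Mb, 17.1% of HP1 peaks lay in gene bodies and 68.6% in deserts, and coverage was 2.48% for H3K9me3 and 1.06% for HP1. With it at 5.1 Mb, coverage was 2.03% and 1.08%. Deserts of at least 20 kb held 57.9% of H3K9me3 peaks, and deserts of at least 100 kb held 27.9% of H3K9me3 and 3.92% of HP1 peaks. Counting any base, 29.4% of HP1 peaks reached a gene end. Without the peaks that touch background regions, H3K9me3 covered 2.19%. Without Myo81F and Pzl in the gene table, an alternative chosen after seeing the data, 15.8% of H3K9me3 peaks lay in gene bodies.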

Other observations

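Some edges of the intervals coincided between the lists. The HP1 and H3K9me3 peaks at CG12581 both began at base 4174279. An HP1 and an H3K9me3 peak in the desert from CG41128 to CG41099 both ended at 3790517. These H3K9me3 peaks are nevertheless named HWT pel and the HP1 peaks ywdf sup. The HP1 call with the most parts was listed in 7 pieces between 3744871 and 3757978, and 20 HWT H3K9me3 calls were listed in 2 to 4 pieces. Among the members, 13 H3K9me3 and 3 HP1 peaks were narrower than 100 bp. One of these, a 61 bp piece in Gfat1, carries the highest HP1 fold enrichment, that of its whole call.

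The H3K9me3 peaks by source differed in enrichment, with a median of 4.95-fold for the 162 HWT peaks and 6.66-fold for the 28 ywdf peaks, which were taken from different libraries. Of the HWT peaks 24 touched HP1, and of the ywdf peaks 3.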
